A study of Rattus norvegicus with 18 samples.

Results

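The data described here compare bone repairing around bare PCL scaffolds at week 6 after implantation with bone around the same scaffold at week 2. They come from 6 of the 18 libraries of the series, chosen by their labels alone: 3 libraries from PCL at week 2 and 3 from PCL at week 6. PCL, polycaprolactone, is a slowly degrading polyester that was printed into scaffolds and placed in a critical-sized defect of the radius in wild-type (WT) rats, a gap too large to close by itself. The other 12 libraries came from the same polymer loaded either with calcium phosphate microparticles (CaP) or with chitosan nanoparticles that hold amorphous calcium phosphate (ACPC-NP), in 3 libraries per scaffold and week. For each library, cells were released by enzymes from marrow and from minced bone within 1 mm of either end of the scaffold, after lysis of red cells, and were pooled before polyadenylated RNA was sequenced. The groups used here have no intact bone and no empty defect, and all share the defect and the polymer, so the healing of the defect and the response to the scaffold cannot be told apart. The labels give no age or strain of the animals, nor whether each library of a group is from its own animal. The p-values and errors below come from a model of all 18 libraries. They measure the spread within groups over every scaffold and week, not around PCL alone, and that spread may be technical in part.

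A bone defect passes through inflammation, then lays down a soft callus of cartilage and woven bone, and is then remodelled by osteoclasts, which resorb the matrix that osteoblasts have made. The bone matrix is mostly type I collagen, which is hydroxylated, folded and trimmed by dedicated enzymes and then cross-linked outside the cell by lysyl oxidases. Marrow beside the bone supplies the macrophages, osteoclast precursors and lymphocytes. Regulatory T cells, which restrain other immune cells, and macrophages are both known to act on bone repair and on the response to an implanted material.

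Total counts of the 6 PCL libraries ran from 22693551 to 25622793. No pair within a week was a duplicate, since the chi-square of their counts was at least 32.03 per degree of freedom. The tissue label was checked against marker genes: Col1a1, the main chain of bone collagen, was at 6722 to 23464 counts per 1000000 counts (CPM), and Bglap, the osteoblast product osteocalcin, at 165 to 471 CPM. Markers of red cells summed to 30586 to 62636 CPM at week 2 and 30952 to 49162 CPM at week 6, and those of mature neutrophils to 25694 to 28399.8 and 15370.3 to 36327 CPM, so the libraries hold much marrow. Some genes that this tissue is known to use are listed at 0 in all PCL libraries, among them Tnfsf11, Tnf, Gata1 and Il7r, and Col1a2 had only 0.119 to 0.356 CPM, so a low value of a single gene is not read as absence. In these bulk libraries, fewer cells of a type and less RNA per cell cannot be told apart.

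Of the PCL libraries, 3 stood apart from the others of their week. Replicate 2 of week 2 and replicate 3 of week 6 were rich in cartilage transcripts, and the values with and without them are given with the cartilage genes. Replicate 1 of week 6 lay alone on the second principal axis of the 6 libraries, at 41.6 against -23.4 to 4.14, on an axis that held 23.0% of the variance. It also had the lowest weight of the 6 when libraries were weighted by quality, 0.240 against 0.549 to 2.11. On the first axis, with 33.1% of the variance, replicates 2 and 3 of week 6 were at 23.0 and 35.1 and replicates 1 and 3 of week 2 at -25.4 and -31.0. Replicate 1 of week 6, at -10.5, lay on the side of week 2 on that axis, and replicate 2 of week 2, at 8.80, on the side of week 6.

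No single gene passed the main test between the weeks. Among 11814 genes tested by the quasi-likelihood test of edgeR with Benjamini-Hochberg adjustment, 0 were higher and 0 were lower at week 6, which is 0% of the genes in either direction. The lowest adjusted p was 0.0938, for Foxp3. At an unadjusted p under 0.05 there were 1166 genes, of which 705 were higher (5.97% of those tested) and 461 lower (3.9%). The CPM ranges of the 2 weeks did not overlap for 917 genes higher at week 6 (7.76%) and 791 genes lower (6.7%). Other tools gave more calls on the same counts. DESeq2 called 17 genes higher (0.153% of 11118) and 19 lower (0.171%), and limma voom, which weights libraries by quality, called 1059 higher (8.96%) and 686 lower (5.81%), with 35 of the 36 genes of DESeq2 among them. Without replicate 1 of week 6, edgeR itself called 38 genes higher and 14 lower, and without any 1 of the other 5 PCL libraries it called 0. The median log2 difference of all genes was 0.00, and 50.6% of them were above 0, which is the background for the gene groups below.

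Genes are named in order of unadjusted p among those with an average log2 CPM of at least 1 and a proper gene symbol, placeholder names being left out. The gene with the smallest p was Foxp3, the transcription factor that defines regulatory T cells. Its level was 0.69, 0.99 and 1.08 CPM at week 2 and 3.35, 3.76 and 4.50 CPM at week 6. Every week 6 library was above every week 2 library, and the log2 difference was 2.07 ± 0.31 (SE; adjusted p 0.0938 in edgeR, 4.7e-06 in DESeq2 and 0.00362 in voom). Next came Mir142, the gene of a microRNA that blood-forming cells make in large amounts, with 5.25, 6.45 and 4.12 CPM at week 2 and 12.8, 14.9 and 16.3 CPM at week 6. Its groups did not overlap either, and the difference was 1.47 ± 0.25 (adjusted p 0.147 in edgeR and 7.2e-05 in DESeq2). Sequencing of polyadenylated RNA reads the longer transcript around this gene, not the mature microRNAs that are cut from it, and their levels were not measured. Those products are shown because the gene is known by them; the seed, bases 2 to 8, is in capitals, and both lie on the plus strand of chromosome 10 in the rat assembly GRCr8, per RefSeq, the 5p arm at chr10:73055119-73055139 and the 3p arm at chr10:73055155-73055177. The 2 seeds differ.
rno-miR-142-5p: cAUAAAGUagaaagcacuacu
rno-miR-142-3p: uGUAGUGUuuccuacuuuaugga

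The other 8 genes higher at week 6 that were named by this order held 2 more lymphocyte genes. Prf1, which encodes the pore-forming perforin of cytotoxic cells, was at 2.99, 3.52 and 2.498 CPM at week 2 and 8.45, 6.21 and 10.4 CPM at week 6, a difference of 1.47 ± 0.35. Cd27, a co-stimulatory receptor of T and B cells, was at 2.87, 3.37 and 2.33 CPM at week 2 and 6.04, 5.26 and 7.05 CPM at week 6, a difference of 1.10 ± 0.23. In both genes all week 6 libraries lay above all week 2 libraries, as they did for the remaining genes of this set. Those were Rfx1, a transcription factor of the regulatory factor X family (0.65 ± 0.11), Slc4a7, a bicarbonate transporter (0.69 ± 0.14), Dvl1, a Dishevelled protein that relays Wnt signals (0.62 ± 0.14), F8, coagulation factor VIII (0.51 ± 0.12), Luc7l, a splicing factor (0.46 ± 0.11), and Chkb, a choline kinase (0.65 ± 0.16). Their adjusted p in edgeR ran from 0.147 to 0.391, so none passed. DESeq2 called the named genes of this set except Chkb, for which its adjusted p was 0.0701, and voom called all of them. The genes were chosen by small p in the same counts, which favours both separate groups and calls by the other tools.

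Of the 10 genes lower at week 6 that were named by the same order, the one with the largest difference was Wnt5a, a ligand of the non-canonical Wnt pathway that is known to act on osteoblasts and osteoclast precursors. It was at 8.20, 13.3 and 6.50 CPM at week 2 and 1.63, 0.713 and 2.29 CPM at week 6, a difference of -2.59 ± 0.62 (adjusted p 0.391 in edgeR, 0.0118 in DESeq2 and 0.0442 in voom). The lowest week 2 library was above the highest week 6 library. Nxph4, a secreted neurexophilin, was at 6.74, 3.84 and 4.50 CPM at week 2 and 1.31, 2.61 and 1.36 CPM at week 6, a difference of -1.51 ± 0.35. H1f0, the linker histone that builds up in cells that have stopped dividing, was at 193, 105 and 183 CPM at week 2 and 92.9, 65.0 and 60.4 CPM at week 6, a difference of -1.14 ± 0.23. The groups of these 2 genes did not overlap. Ccdc8, a member of the 3M growth complex, had a difference of -1.49 ± 0.34, and F2rl1, the protease-activated receptor 2, had -1.04 ± 0.24. The differences of the remaining genes were smaller: Tmem218, a membrane protein of the cilium (-0.75 ± 0.18), Farsb, a subunit of phenylalanyl-tRNA synthetase (-0.61 ± 0.14), Slc25a11, the mitochondrial oxoglutarate carrier (-0.48 ± 0.11), Mvk, the mevalonate kinase of sterol synthesis (-0.43 ± 0.10), and Eif4e3, a cap-binding protein (-0.42 ± 0.08). Week 6 lay wholly below week 2 in these genes as well. DESeq2 and voom called all 10, and edgeR called none. Here too the choice by small p favours separate groups and calls by the other tools.

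**Figure D1:**
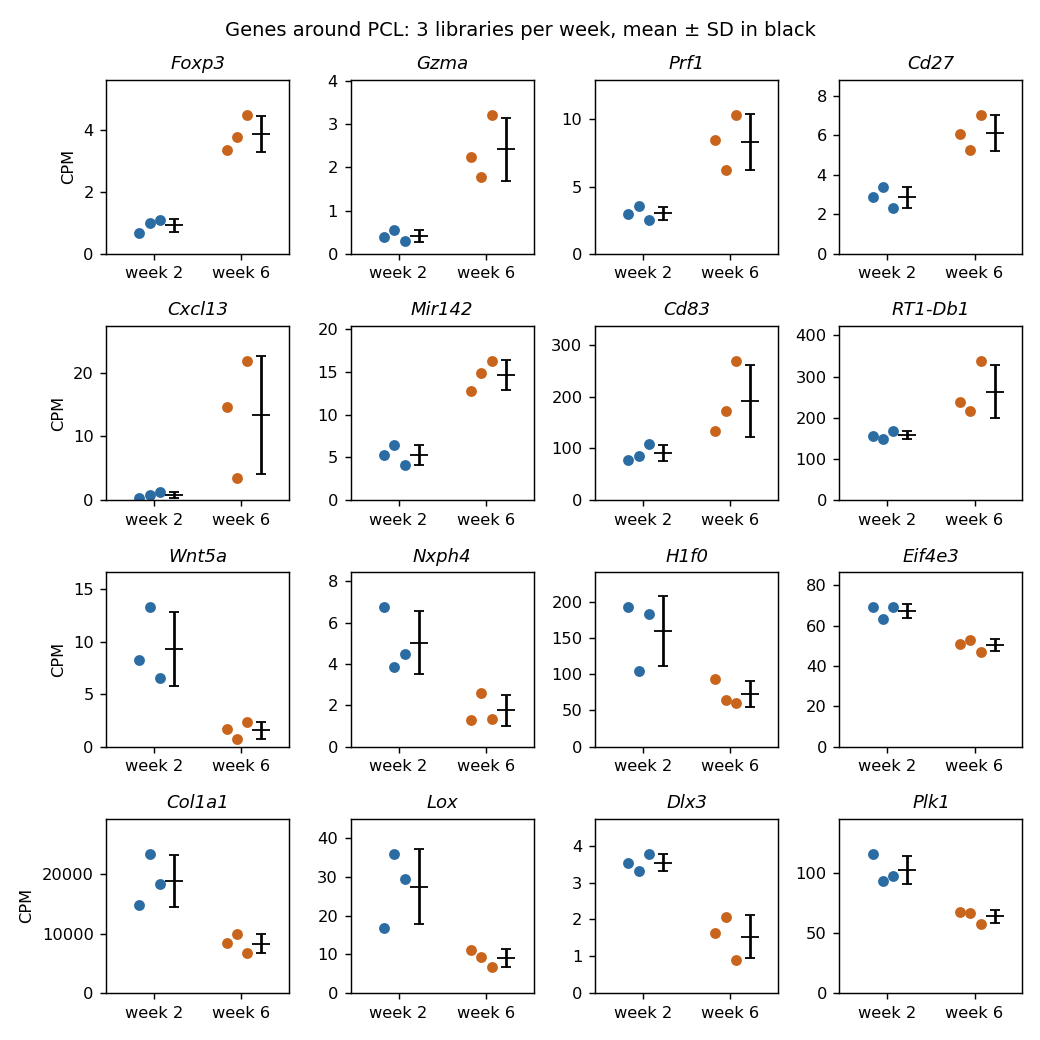
Level of 16 genes in counts per 1000000 counts (CPM, vertical axes that start at 0) in the 3 week 2 and 3 week 6 libraries around PCL; each point is a library, and the black marks are the mean ± SD. Foxp3 lies between 0.690 and 1.08 CPM at week 2 and between 3.35 and 4.50 CPM at week 6, and Wnt5a between 6.50 and 13.3 and between 0.713 and 2.29 CPM.

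Genes of the bone matrix were lower at week 6 as a group. Of 21 osteoblast and matrix genes listed, 19 had enough counts to be tested, 18 of these were below 0, and their median difference was -0.68, against 0.00 over all genes. None passed edgeR's adjustment, 5 had an unadjusted p under 0.05, where 3.9% of all genes did and were lower, and 8 had week 6 libraries all below the week 2 libraries, where 6.7% of all genes did. Col1a1 was at 14804, 23464 and 18272 CPM at week 2 and 8338, 9855 and 6722 CPM at week 6, a difference of -1.18 ± 0.41 with an adjusted p of 0.43 in edgeR and 0.0255 in voom. Its groups did not overlap, and the lowest week 2 library was at 14804 CPM against a highest week 6 library of 9855 CPM. The transcription factors that set the osteoblast fate differed among themselves. Sp7, which acts after Runx2 in this lineage, was at 5.67, 7.13 and 4.16 CPM at week 2 and 1.96, 3.84 and 2.38 CPM at week 6, a difference of -1.051 ± 0.41 with no overlap. Dlx3, a homeobox factor of osteoblasts, was at 3.53, 3.33 and 3.79 CPM at week 2 and 1.63, 2.06 and 0.891 CPM at week 6, a difference of -1.21 ± 0.42, again with no overlap and with an adjusted p of 0.00927 in voom. Runx2 itself was at 34.8, 38.9 and 36.5 CPM at week 2 and 41.1, 29.8 and 26.5 CPM at week 6, with overlapping groups and a difference of -0.18 ± 0.14.

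Among the products of mature osteoblasts, Ibsp, the bone sialoprotein, was at 143, 257 and 113 CPM at week 2 and 44.6, 75.0 and 100.4 CPM at week 6, a difference of -1.22 ± 0.67 with no overlap. Bglap was at 255, 471 and 356 CPM at week 2 and 165, 287 and 226 CPM at week 6, a difference of -0.68 ± 0.42, and the groups overlapped in replicate 2 of week 6. Alpl, the alkaline phosphatase that frees phosphate for mineral, was at 121, 142 and 115 CPM at week 2 and 138, 65.6 and 99.5 CPM at week 6 and differed by -0.32 ± 0.27, also with overlap. Spp1, the phosphoprotein osteopontin made by both osteoblasts and macrophages, was the only member above 0, at 0.03 ± 0.58. It was at 260.1, 745 and 482 CPM at week 2 and 797, 417 and 308 CPM at week 6, so the spread within a week was larger than the difference, and its sign turned to -0.15 in voom. Of 8 tested genes of osteocytes, the cells buried in bone, 7 were below 0, with a median of -0.25 that was -0.50 without replicate 2 of week 6 and -0.05 without both cartilage-rich libraries. Dmp1, a matrix protein of osteocytes, was at 17.6, 22.5 and 12.4 CPM at week 2 and 10.4, 22.2 and 11.9 CPM at week 6, a difference of -0.24 ± 0.59. Sost, whose product sclerostin blocks Wnt signals, was near 0 CPM in all 6 libraries, at 0.167 to 0.713 CPM, with a difference of -0.03 ± 0.62. The smallest p of this list belonged to Irx5, an Iroquois homeobox factor, at 1.26, 3.21 and 1.42 CPM at week 2 and 0.327, 1.11 and 0.679 CPM at week 6, a difference of -1.47 ± 0.48 with no overlap.

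All tested genes of collagen chains, and of the enzymes and chaperones that process them, were below 0. Each of the 18 tested chains, of 26 listed, was lower on average at week 6, with a median of -1.07 and a range of -2.02 to -0.29. Each of 19 tested processing genes, of 21 listed, was also lower, with a median of -0.80. The mean score of the processing list overlapped between the weeks, at -0.10 in replicate 1 of week 6 and -0.23 in replicate 1 of week 2. Its summed level in these 2 libraries was 501 and 522 CPM, the highest of week 6 and the lowest of week 2. By edgeR 0 chains and 0 processing genes passed the adjustment, 4 and 6 had an unadjusted p under 0.05 (3.9% of all genes were lower at that level), and 5 and 7 lay wholly lower at week 6 (6.7% of all genes). Voom called 4 chains and 5 processing genes lower (5.81% of all genes). Lox, the lysyl oxidase that cross-links collagen fibres, was at 16.9, 36.0 and 29.5 CPM at week 2 and 11.2, 9.38 and 6.66 CPM at week 6, a difference of -1.59 ± 0.48. Its week 6 libraries all lay below its week 2 libraries, which spread more widely. Col5a1, the type V chain that sets the width of type I fibres, was at 193, 344 and 370.0 CPM at week 2 and 161, 120.5 and 76.1 CPM at week 6, a difference of -1.34 ± 0.46, and Fkbp10, a collagen chaperone of the endoplasmic reticulum, was at 43.9, 66.2 and 62.3 CPM at week 2 and 34.6, 28.0 and 21.4 CPM at week 6, a difference of -1.04 ± 0.39. Neither of these overlapped between the weeks. Col1a1 itself stands in both the osteoblast and the chain list, and the chain list shares the cartilage collagens with the chondrocyte list. When 1 PCL library was left out at a time, the medians ran from -1.28 to -0.78 for the chains, from -1.048 to -0.51 for the processing genes and from -0.97 to -0.44 for the osteoblast list, each nearest to 0 without replicate 2 of week 2. Leaving out both cartilage-rich libraries gave medians of -0.72 for the chains, -0.43 for the processing genes and -0.46 for the osteoblast list. Markers of skeletal muscle, red cells and cartilage also differed between these libraries, as given below, and their part in the lower matrix values was not tested.

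Other matrix genes of the callus had wider spreads. Postn, periostin of the periosteum and of young fibrous tissue, was at 20.7, 47.1 and 92.2 CPM at week 2 and 30.5, 11.9 and 6.24 CPM at week 6, a difference of -1.72 ± 0.86. Tnc, the repair matrix protein tenascin C, was at 26.8, 46.5 and 78.1 CPM at week 2 and 37.5, 29.3 and 12.7 CPM at week 6, a difference of -0.93 ± 0.65. Both had their highest value in replicate 3 of week 2, and in both the groups overlapped. Over the 14 tested fibroblast and tendon genes the median was -0.47, with 11 below 0. It was -0.82 without replicate 1 of week 6, -0.30 without replicate 3 of week 6 and -1.08 in voom. The 22 matrix proteases and inhibitors had a median of -0.11, and the 2 of smallest p were both membrane-anchored enzymes. Mmp16 was at 3.30, 6.41 and 4.16 CPM at week 2 and 1.31, 2.93 and 1.15 CPM at week 6, a difference of -1.36 ± 0.44, and Mmp23 was at 2.38, 3.80 and 2.87 CPM at week 2 and 1.27, 1.35 and 0.467 CPM at week 6, a difference of -1.55 ± 0.54. Mmp13, the collagenase of hypertrophic cartilage and bone, was at 31.7, 64.4 and 36.7 CPM at week 2 and 20.8, 38.8 and 38.8 CPM at week 6 with overlapping groups and a difference of -0.43 ± 0.64.

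**Figure D2:**
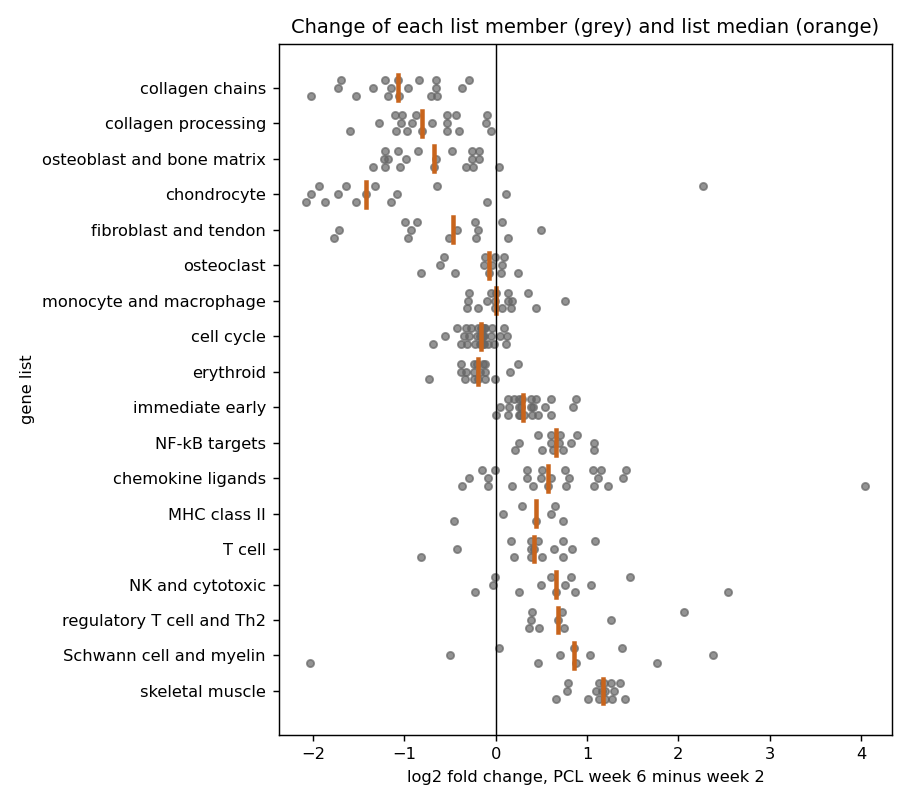
Log2 difference between week 6 and week 2 around PCL (horizontal axis) for each tested member of 18 gene lists (grey points) with the list median (orange bar); points right of the vertical line at 0 were higher at week 6. All collagen chains and collagen processing genes lie left of the line, with medians of -1.07 and -0.80, and all NF-kB targets and skeletal muscle genes lie right of it, with medians of 0.66 and 1.17.

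Cartilage genes separated libraries rather than weeks. Col2a1, the type II collagen of cartilage, was at 227, 7318 and 135 CPM at week 2 and 57.6, 62.6 and 2195 CPM at week 6. Replicate 2 of week 2 and replicate 3 of week 6 were far above the other 4 libraries, so the groups overlapped and the difference of -1.73 ± 1.85 was no larger than its error. Acan, the proteoglycan aggrecan, was at 30.9, 496 and 83.9 CPM at week 2 and 35.4, 15.8 and 145 CPM at week 6, and Sox9, the transcription factor of chondrocytes, at 0.69, 7.25 and 1.96 CPM at week 2 and 1.59, 0.515 and 7.17 CPM at week 6. The same 2 libraries were highest for both genes, and the differences were -1.64 ± 1.296 and -0.10 ± 1.24. The mean score of the 15 tested chondrocyte genes, on a log2 scale centred over all 18 libraries, was -0.92, 3.01 and -1.25 in the week 2 libraries and -1.69, -2.07 and 1.79 in those of week 6. The median difference of the list, -1.42, became 2.09 without replicate 2 of week 2 and -4.0 without replicate 3 of week 6, and it was -1.18 without both. Chad, a leucine-rich matrix protein of cartilage, was the member with the largest positive difference, 2.27 ± 1.20. It was at 2.68, 15.9 and 1.249 CPM at week 2 and 12.2, 12.8 and 70.5 CPM at week 6, so all week 6 libraries lay above replicates 1 and 3 of week 2, and 2 of them below the cartilage-rich replicate 2. Frzb, a secreted Wnt inhibitor made by chondrocytes, was at 0.996, 29.7 and 1.75 CPM at week 2 and 0.163, 0.475 and 1.91 CPM at week 6, and its difference of -3.67 ± 1.29 rested on the cartilage-rich library of week 2. Col11a1, a minor fibril collagen that osteoblasts make as well, was at 241, 856 and 232 CPM at week 2 and 126, 122 and 214 CPM at week 6, a difference of -1.52 ± 0.69 with no overlap.

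**Figure D3:**
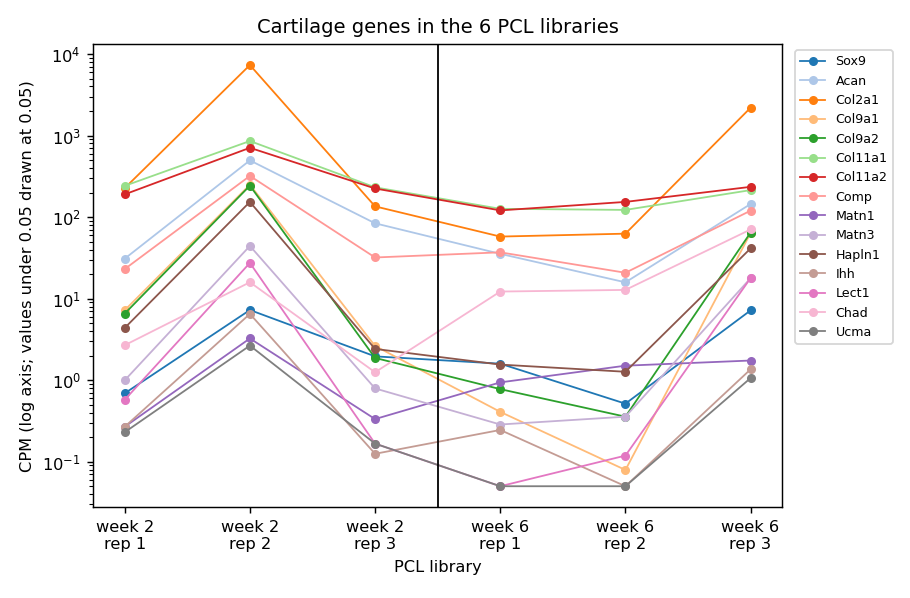
Level of 15 chondrocyte genes in CPM (log axis) in each of the 6 PCL libraries; the vertical line parts week 2 from week 6, the lines join the values of a gene, and values under 0.05 are drawn at the axis floor. Replicate 2 of week 2 and replicate 3 of week 6 hold the highest values of most genes, for example 7318 and 2195 CPM of Col2a1 against 57.6 to 227 CPM in the other 4 libraries.

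Osteoclast genes were close to equal at the 2 weeks. Of 15 listed, 13 were tested, 4 were above 0 and the median was -0.07. Acp5, an acid phosphatase by which osteoclasts are stained, was at 147, 165 and 120.1 CPM at week 2 and 118, 148 and 133 CPM at week 6, a difference of -0.11 ± 0.29. Ctsk, the cathepsin that cuts bone collagen, was at 91.1, 199.8 and 76.2 CPM at week 2 and 99.98, 91.8 and 57.0 CPM at week 6, a difference of -0.56 ± 0.61 that rested on replicate 2 of week 2. Mmp9, made by osteoclasts and in larger amounts by neutrophils, was at 999, 907 and 918 CPM at week 2 and 1322, 506 and 757 CPM at week 6, a difference of -0.13 ± 0.24, and its highest and lowest libraries were both of week 6. Of the genes that control osteoclasts, the ligand Tnfsf11 (RANKL) is listed at 0. Its decoy receptor Tnfrsf11b, osteoprotegerin, was at 1.26, 1.35 and 1.83 CPM at week 2 and 2.94, 2.14 and 4.16 CPM at week 6, all week 6 libraries being above all of week 2, with a difference of 1.054 ± 0.61 and an adjusted p of 0.587 in edgeR and 0.265 in voom. Lif, a cytokine of the interleukin 6 family that acts on bone cells, was at 0.766, 1.19 and 0.958 CPM at week 2 and 2.25, 2.14 and 2.16 CPM at week 6, a difference of 1.17 ± 0.47 with no overlap and an adjusted p of 0.0482 in voom.

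The lists of Wnt, BMP and TGF-beta signalling, which hold ligands, receptors, inhibitors and targets, did not share a direction. The median of 27 Wnt genes was -0.06, that of 21 BMP genes 0.03 and that of 19 TGF-beta genes 0.26. In the TGF-beta list 3 genes lay wholly higher at week 6 and 0 wholly lower (7.76% and 6.7% of all genes). Voom called 4 genes of this list higher and 0 lower (8.96% and 5.81% of all genes). At an unadjusted p under 0.05 there were 2 higher and 2 lower genes in the Wnt list, Wnt5a among them, 0 and 1 in the BMP list, and 2 and 0 in the TGF-beta list, where 5.97% of all genes were higher and 3.9% lower at that level. Bmp2, the ligand that starts bone formation, was at 0.92, 2.53 and 1.62 CPM at week 2 and 2.37, 1.07 and 2.25 CPM at week 6, a difference of 0.16 ± 0.64. Tgfb1, the main transforming growth factor of bone matrix and of macrophages, was at 276, 330.1 and 302 CPM at week 2 and 436, 307 and 362 CPM at week 6, a difference of 0.28 ± 0.19. Both overlapped between the weeks. The receptor gene Tgfbr1 was at 93.8, 118 and 100.1 CPM at week 2 and 134, 129 and 129.6 CPM at week 6, a difference of 0.33 ± 0.15, and Pmepa1, a gene that TGF-beta induces and whose product restrains the pathway, was at 22.9, 48.1 and 41.7 CPM at week 2 and 59.6, 69.7 and 85.5 CPM at week 6, a difference of 0.93 ± 0.41. In these 2 genes the week 6 libraries all lay above those of week 2, and voom called both, with adjusted p of 0.0321 and 0.0297. Vegfa, the growth factor of blood vessels, was at 84.1, 170.4 and 114 CPM at week 2 and 234, 127 and 112 CPM at week 6 with overlap and a difference of 0.36 ± 0.63, and the 17 endothelial genes had a median of -0.03.

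**Figure D4:**
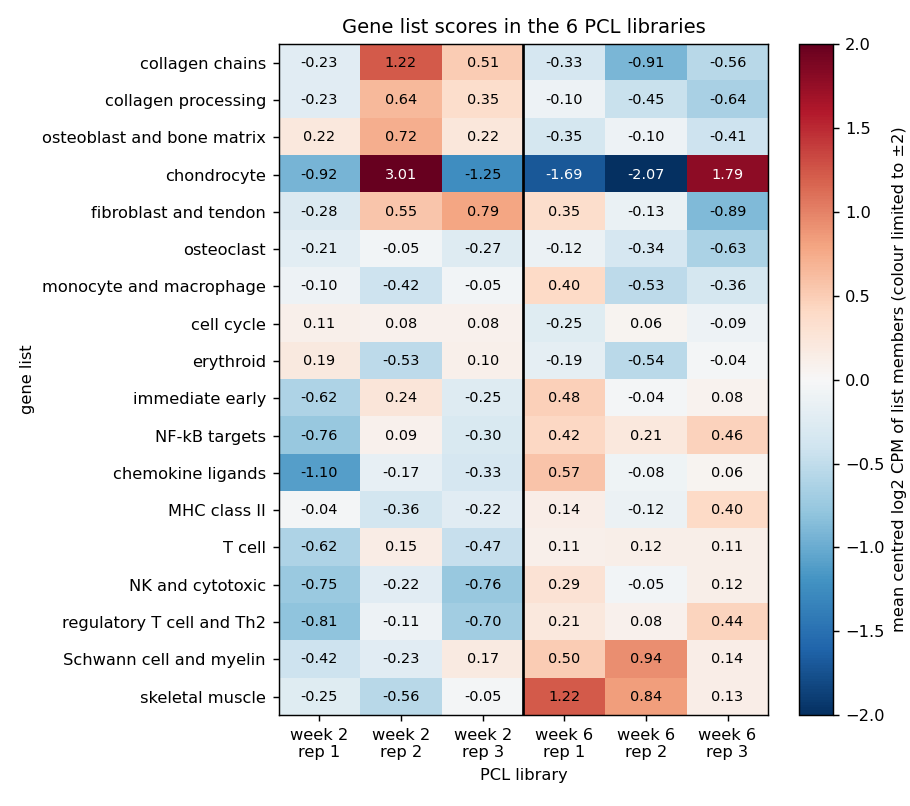
Score of 18 gene lists in each PCL library, as the mean over tested members of log2 CPM centred on all 18 libraries of the series (colour, limited to ±2, with the value printed in each cell); the black line parts week 2 from week 6. The collagen chain scores are -0.23, 1.22 and 0.51 at week 2 and -0.33, -0.91 and -0.56 at week 6, and those of the regulatory T cell list -0.81, -0.11 and -0.70 and 0.21, 0.08 and 0.44.

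Most genes of regulatory T cells and of cytotoxic lymphocytes had positive differences at week 6. All 9 tested genes of the list for regulatory T cells and type 2 helper cells, of 13 listed, were above 0, with a median of 0.68, and 3 of them did not overlap between the weeks, where 7.76% of all genes did not. Il2ra, the high-affinity interleukin 2 receptor chain that these cells carry, was at 0.881, 2.14 and 1.04 CPM at week 2 and 2.53, 3.36 and 3.91 CPM at week 6, a difference of 1.27 ± 0.49 with an adjusted p of 0.0209 in voom. Il10, a cytokine that they and macrophages secrete, was at 0.575, 1.03 and 0.708 CPM at week 2 and 1.10, 0.752 and 1.36 CPM at week 6 and overlapped, with a difference of 0.47 ± 0.87. Foxp3 is itself a member of this list, and without replicate 3 of week 6 the list median was 0.41. Of 13 tested genes of natural killer and cytotoxic cells, 10 were above 0, with a median of 0.66 that was 1.006 without replicate 2 of week 2, and 4 lay wholly higher at week 6 against the same 7.76%. The summed level of this list overlapped, at 181, 154 and 162 CPM at week 2 and 273, 136 and 161 CPM at week 6. Gzma, granzyme A, a protease that enters target cells through perforin pores, was at 0.383, 0.554 and 0.291 CPM at week 2 and 2.25, 1.78 and 3.23 CPM at week 6. The lowest week 6 library was above the highest week 2 library, and the difference was 2.54 ± 0.47 (adjusted p 0.195 in edgeR, 0.00106 in DESeq2 and 0.00607 in voom).

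General T cell genes had smaller differences. Of 15 tested, 13 were above 0, with a median of 0.42 that was 0.82 without replicate 2 of week 2, and the summed level of the list was 199 to 289 CPM at week 2 and 314 to 329 CPM at week 6. These sums did not overlap. The mean scores of the list did, at -0.62, 0.15 and -0.47 at week 2 and 0.11, 0.12 and 0.11 at week 6. Replicate 2 of week 2 thus scored above every week 6 library. The part of general T cell genes in the higher Foxp3 and Gzma values was not tested. Ccr7, the receptor that guides T cells and dendritic cells to lymph nodes, was at 25.9, 46.9 and 32.9 CPM at week 2 and 56.8, 79.1 and 89.0 CPM at week 6, a difference of 1.09 ± 0.37 with no overlap. Cd5, a brake on T cell receptor signals, was at 8.09, 14.1 and 8.41 CPM at week 2 and 11.6, 20.7 and 18.7 CPM at week 6, a difference of 0.74 ± 0.27, and replicate 1 of week 6 lay below replicate 2 of week 2. Voom called both, with adjusted p of 0.0087 and 0.00927. Among 7 tested genes of antigen presentation by MHC class II, 6 were above 0, with a median of 0.44 that was 0.21 without replicate 3 of week 6 and 0.13 without both cartilage-rich libraries. RT1-Db1, a class II beta chain of the rat, was at 156, 149 and 168 CPM at week 2 and 238, 216 and 338 CPM at week 6, a difference of 0.74 ± 0.25, and RT1-Da, the matching alpha chain, was at 239, 227 and 262 CPM at week 2 and 405, 266 and 467 CPM at week 6, a difference of 0.65 ± 0.28. In both genes the groups did not overlap, although replicate 2 of week 6 was only slightly above replicate 3 of week 2 for RT1-Da. The RT1 genes form a family of near-identical copies, so reads may be shared among them and their values are uncertain. B cell genes had medians near 0: 0.01 over 13 genes of precursors and 0.09 over 16 of mature B and plasma cells. The week 6 libraries differed widely, however. Precursor sums were 2209, 2280 and 2361 CPM at week 2 and 1300, 2801 and 2953 CPM at week 6. Mature B and plasma cell sums were 3024, 2922 and 3152 CPM and 2024, 4101 and 4241 CPM. The precursor median was 0.33 without replicate 1 of week 6 and -0.16 without replicate 3 of week 6.

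Chemokines, the ligands that draw leukocytes, were mostly higher at week 6. Of 25 tested, 19 were above 0, 7 lay wholly higher at week 6 (7.76% of all genes did), and the median was 0.57. It was 0.37 without replicate 1 of week 2 and 0.87 without replicate 2. Cxcl13, which draws B cells and follicular T cells, had the largest difference of any tested gene of the 43 lists, 4.04 ± 1.04. It was at 0.307, 0.792 and 1.33 CPM at week 2 and 14.7, 3.44 and 21.9 CPM at week 6, so every week 6 library was above every week 2 library, although those of week 6 differed widely among themselves. DESeq2 called it with an adjusted p of 0.00425, while edgeR gave 0.391 and voom 0.101. Ccl2, which draws monocytes, was at 102, 175 and 127 CPM at week 2 and 426, 206 and 243 CPM at week 6, a difference of 1.12 ± 0.62 with no overlap and its highest value in replicate 1 of week 6. Ccl22, a ligand for the receptor of regulatory and type 2 helper T cells, was at 0.345, 1.74 and 2.46 CPM at week 2 and 4.08, 4.67 and 3.44 CPM at week 6, a difference of 1.43 ± 0.63 with no overlap. Ccl4, a chemokine of activated macrophages and lymphocytes, was at 2.07, 3.68 and 2.71 CPM at week 2 and 6.08, 7.88 and 8.36 CPM at week 6, a difference of 1.40 ± 0.77, also with no overlap. Replicate 1 of week 2 had the lowest score of the chemokine list, -1.10, and replicate 1 of week 6 the highest, 0.57.

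Macrophage cytokines had larger errors than most lymphocyte genes, and these errors also take in the spread around the other scaffolds. For Il1b, the change over time differed from that around ACPC-NP with an error of 1.12. That error was 0.68 without replicate 3 of ACPC-NP at week 2. The 17 general monocyte and macrophage markers had a median of 0.00, which was -0.35 without replicate 1 of week 6 and 0.20 without replicate 2 of week 6. Cd68, a lysosomal protein of macrophages, was at 152, 158 and 173 CPM at week 2 and 233, 114 and 137 CPM at week 6, a difference of 0.00 ± 0.34. Il1b, the inflammatory interleukin 1 beta, was at 247, 575 and 414 CPM at week 2 and 949, 664 and 801 CPM at week 6, with no overlap and a difference of 0.97 ± 0.77 (adjusted p 0.713 in edgeR and 0.105 in voom). Nos2, the nitric oxide synthase of inflammatory macrophages, was at 128, 345 and 217 CPM at week 2 and 354, 111 and 192 CPM at week 6, a difference of -0.07 ± 0.82, and Il6 was at 3.45, 7.88 and 6.29 CPM at week 2 and 10.98, 7.996 and 5.26 CPM at week 6, a difference of 0.46 ± 0.91. Both overlapped. Arg1, the arginase used as a marker of repair macrophages, was at 1.46, 5.58 and 3.50 CPM at week 2 and 6.16, 2.65 and 8.28 CPM at week 6, a difference of 0.70 ± 1.11, and Mrc1, the mannose receptor CD206, was at 73.4, 46.2 and 76.6 CPM at week 2 and 117, 62.2 and 71.9 CPM at week 6, a difference of 0.36 ± 0.39. The medians of the inflammatory (M1-type) and repair (M2-type) lists were 0.38 over 16 genes and 0.36 over 15 genes. The first was 0.19 without replicate 1 of week 2, and the second was 0.16 without replicate 1 of week 6. Genes of foreign body giant cells, which form by macrophage fusion on implants, had a median of 0.09 over 15 genes.

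All 14 tested targets and members of the NF-kB pathway, of 17 listed, were above 0 at week 6, with a median of 0.66. NF-kB is a family of transcription factors that inflammation and lymphocyte receptors switch on and that induces its own inhibitors. By edgeR 0 passed the adjustment and 2 had an unadjusted p under 0.05, 6 lay wholly higher at week 6, and voom called 4. Over all genes these shares were 5.97%, 7.76% and 8.96%. Cd83, a surface protein of activated dendritic and B cells, was at 77.9, 86.0 and 108 CPM at week 2 and 134, 173 and 269 CPM at week 6, a difference of 1.08 ± 0.29 with an adjusted p of 0.00798 in voom. Nfkb1, the gene of the p105 and p50 subunit, was at 323, 484 and 378 CPM at week 2 and 578, 673 and 840.0 CPM at week 6, a difference of 0.82 ± 0.28 with an adjusted p of 0.00676 in voom. Neither gene overlapped, and in both replicate 3 of week 6 was highest. The list median stayed between 0.45 and 0.99 when any PCL library was left out, and all 14 members were above 0 each time. Immediate early genes, which cells induce within minutes of handling or stimulation, were also all above 0, 24 of 24, with a median of 0.30 that was 0.12 without replicate 1 of week 6. Their scores were -0.62, 0.24 and -0.25 at week 2 and 0.48, -0.04 and 0.08 at week 6, so 1 week 2 library lay within the range of week 6. The part of these genes in the NF-kB values was not tested.

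Promoters of this list, taken from RefSeq on GRCr8 as the 250 bases before the gene start, were searched on both strands for the kB letters GGGANNNNCC, where N is any base. Of 14 members 13 had a sequence, and 8 of these, or 61.5%, held a match, against 16.8% of 27457 rat promoters of the same length. A match is a description of the letters and not a site shown to be bound here. The list was drawn up from targets and members of the pathway, so the choice of genes may itself set the larger share. That share does not bear on the difference between the weeks. The promoters of Nfkb1 (1 match) and of 2 inhibitor genes of the pathway, Nfkbia (2 matches) and Nfkbiz (3 matches), are printed to show the letters; the inhibitor genes were chosen for their matches, after these were known. They lie at chr2:226805463-226805712 (minus strand), chr6:78597073-78597322 (minus strand) and chr11:58251471-58251720 (plus strand), and capitals mark the matches, which on the other strand read as the reverse complement.
Nfkb1: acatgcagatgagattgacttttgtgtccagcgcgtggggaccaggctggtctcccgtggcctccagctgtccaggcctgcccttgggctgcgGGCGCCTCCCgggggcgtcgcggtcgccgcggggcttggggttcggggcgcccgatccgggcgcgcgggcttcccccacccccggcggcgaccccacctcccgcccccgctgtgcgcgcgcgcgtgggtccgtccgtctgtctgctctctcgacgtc
Nfkbia: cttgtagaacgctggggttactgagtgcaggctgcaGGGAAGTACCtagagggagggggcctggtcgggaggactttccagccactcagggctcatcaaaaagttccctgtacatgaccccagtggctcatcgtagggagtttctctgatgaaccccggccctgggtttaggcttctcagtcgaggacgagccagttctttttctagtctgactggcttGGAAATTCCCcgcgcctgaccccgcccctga
Nfkbiz: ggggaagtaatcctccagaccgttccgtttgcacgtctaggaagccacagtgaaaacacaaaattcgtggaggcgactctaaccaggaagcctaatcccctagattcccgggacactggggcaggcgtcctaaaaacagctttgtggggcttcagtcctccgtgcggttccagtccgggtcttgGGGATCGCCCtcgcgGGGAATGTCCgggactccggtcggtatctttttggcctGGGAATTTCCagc
Nfkbia was at 306, 567 and 431 CPM at week 2 and 732, 476 and 586 CPM at week 6, a difference of 0.46 ± 0.69, and Nfkbiz at 80.2, 166 and 112 CPM at week 2 and 257, 163 and 165 CPM at week 6, a difference of 0.71 ± 0.72. Both overlapped between the weeks, unlike Nfkb1. For the collagen chains, 4 of 13 promoters, or 30.8%, held the letters CCAAT, against 34.3% of all promoters.

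Genes of skeletal muscle and of myelin, which mark tissue that lies beside bone, had positive differences at week 6. All 16 tested muscle genes, of 20 listed, were above 0, with a median of 1.17, and 12 lay wholly higher at week 6, as 7.76% of all genes did. Their summed level was 88.4 to 118 CPM at week 2 and 153 to 293 CPM at week 6, highest in replicate 1 of week 6, and the median without that library was 0.87. By edgeR 0 members passed the adjustment and 0 had an unadjusted p under 0.05, and voom and DESeq2 called 0. Tnnt3, troponin T of fast fibres, was at 13.6, 16.9 and 9.53 CPM at week 2 and 29.3, 28.4 and 23.3 CPM at week 6, a difference of 1.015 ± 0.49, and Atp2a1, the calcium pump of fast fibres, was at 12.4, 9.70 and 13.8 CPM at week 2 and 40.5, 25.0 and 16.3 CPM at week 6, a difference of 1.19 ± 0.62. The letters TATAAA stood in 7 of 14 promoters of the list, or 50%, against 13.1% of all. Of 11 tested Schwann cell and myelin genes 9 were above 0, with a median of 0.86 and sums of 77.8 to 104 and 111 to 184 CPM. Prx, the periaxin of peripheral myelin, was at 4.02, 3.80 and 4.79 CPM at week 2 and 11.6, 15.1 and 6.197 CPM at week 6, a difference of 1.38 ± 0.44, and Mbp, myelin basic protein, was at 34.5, 35.7 and 34.8 CPM at week 2 and 72.2, 61.1 and 38.3 CPM at week 6, a difference of 0.71 ± 0.19. Neither overlapped. The part of this tissue in the lower share of bone matrix transcripts was not tested.

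Lists of marrow lineages and of dividing cells had small medians, and some of these changed sign when a single library was left out. Red cell genes had a median of -0.19 with 16 of 18 below 0, and mature neutrophil genes a median of -0.10 with 12 of 13 below 0. The neutrophil median was -0.55 without replicate 1 of week 6 and 0.14 without replicate 2 of week 6. Lcn2, the iron-binding lipocalin of neutrophils and stressed tissue, was at 1182, 1139 and 572 CPM at week 2 and 123, 391 and 792 CPM at week 6, a difference of -1.15 ± 0.51 with overlapping groups. Fcnb, a ficolin of young granulocytes, was at 1398, 858 and 1488 CPM at week 2 and 1273, 496 and 495 CPM at week 6, a difference of -0.73 ± 0.30, and voom called it with an adjusted p of 0.0052, as did edgeR without replicate 1 of week 6, with an adjusted p of 0.0315. Of 32 cell cycle genes 28 were below 0, with a small median of -0.16, and 10 lay wholly lower at week 6, where 6.7% of all genes did. Plk1, a kinase of mitosis, was at 116, 93.8 and 97.7 CPM at week 2 and 67.4, 66.8 and 57.2 CPM at week 6, a difference of -0.69 ± 0.27, and Cdc20, which starts the exit from mitosis, was at 125, 98.4 and 102 CPM at week 2 and 72.2, 78.6 and 71.2 CPM at week 6, a difference of -0.55 ± 0.25. Both had no overlap, and their adjusted p in voom were 0.0087 and 0.018. Genes of oxidative phosphorylation had a median of -0.13 with 20 of 23 below 0, and interferon response genes -0.19 with 18 of 22 below 0.

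Whether these differences belong to bare PCL was examined by setting the change of each gene over time beside its change around the other scaffolds. In edgeR, 0 of 11814 genes (0%) had a change over time that differed between PCL and CaP, with 198 genes below 0.05 before adjustment and a lowest adjusted p of 0.9999. DESeq2 called 2 genes in this test and voom 0. Against ACPC-NP edgeR also called 0 genes (0%), with 1768 genes below 0.05 at unadjusted p, the lowest adjusted p being 0.278, while DESeq2 called 137 and voom 1953. Replicate 3 of ACPC-NP at week 2 stood far from the other 17 libraries, at 91.4 on their first principal axis where the others ran from -23.9 to 25.5, so values against ACPC-NP are given with and without it. Without it edgeR again called 0 genes against ACPC-NP, with 993 at an unadjusted p under 0.05. Without replicate 1 of PCL at week 6 edgeR called 1 gene against CaP and 62 against ACPC-NP. Both tests use the same 6 PCL libraries.

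Collagen and osteoblast medians were below 0 around each of the 3 scaffolds. The median of the collagen chains was -1.07 around PCL, -0.92 around CaP and -1.06 around ACPC-NP, or -1.28 without replicate 3. For the collagen processing genes the medians were -0.80, -0.76 and -1.24, or -1.20 without replicate 3, and for the osteoblast list -0.68, -0.66 and -1.248, or -1.56 without it. Col1a1 differed over time by -1.03 ± 0.41 around CaP and -1.49 ± 0.41 around ACPC-NP, or -1.81 without replicate 3. The PCL value minus that of CaP was -0.15 ± 0.57, and minus that of ACPC-NP 0.30 ± 0.57, or 0.62 ± 0.50 without replicate 3. The muscle list was above 0 around each scaffold as well, with medians of 1.17, 1.37 and 2.5002, or 2.86 without replicate 3.

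The medians of several immune gene lists were larger around PCL than around the other scaffolds, and none of their genes passed edgeR's test of the difference. The regulatory T cell list had a median of 0.68 around PCL, 0.27 around CaP and -1.02 around ACPC-NP, or -0.41 without replicate 3. The cytotoxic list had 0.66, 0.14, -0.13 and 0.07 in the same order, and the chemokines 0.57, -0.21, -1.602 and -0.94. In that order the T cell list had 0.42, 0.19, -0.11 and 0.07, the MHC class II list 0.44, -0.05, -0.44 and -0.06, and the NF-kB targets 0.66, 0.42, -1.32 and -0.07. The M1-type list had 0.38, -0.12, -2.55 and -0.75 and the M2-type list 0.36, 0.12, -1.15 and -0.62. Foxp3 differed over time by 0.27 ± 0.29 around CaP and -0.33 ± 0.29 around ACPC-NP, or -0.03 without replicate 3. The PCL difference exceeded that of CaP by 1.79 ± 0.42, with an unadjusted p of 0.00074 and an adjusted p of 0.9999, and that of ACPC-NP by 2.40 ± 0.43, with an unadjusted p of 4.9e-05 and an adjusted p of 0.278. Without replicate 3 the latter was 2.09 ± 0.42. For Gzma the excess over CaP was 1.97 ± 0.64, and that over ACPC-NP 3.80 ± 0.65, or 3.14 ± 0.57 without replicate 3. For Wnt5a, lower with time around PCL, the difference over time was 0.36 ± 0.58 around CaP and 0.36 ± 0.57 around ACPC-NP (0.58 without replicate 3), which gave a difference of -2.96 ± 0.84 from CaP and of -2.95 ± 0.84 from ACPC-NP, or -3.18 ± 0.92 without replicate 3. None of these passed the adjustment over all genes in edgeR.

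Other genes with the smallest p in these 2 tests were outside the lists. Against CaP they included Pcp4l1, a small relative of the neuronal protein Pcp4, whose difference of 4.73 ± 1.58 around PCL rested on replicate 2 of week 6, at 55.4 CPM where the other PCL libraries were at 0.383 to 1.63 CPM. They also included Cldn12, a tight junction protein, at 0.41 ± 0.11 around PCL and -0.15 ± 0.11 around CaP, and Tubb4a, a neuronal beta tubulin, at -0.17 ± 0.30 and 1.47 ± 0.31. Against ACPC-NP they were Pianp, a ligand of the receptor PILRA, at 1.02 ± 0.33 around PCL and -1.36 ± 0.34 around ACPC-NP (-1.40 without replicate 3), and 3 genes that were lower with time around PCL. Tusc2, a mitochondrial protein, was at -0.42 ± 0.13 and 0.46 ± 0.13, B3gnt6, a glycosyltransferase of mucins, at -0.995 ± 0.38 and 1.53 ± 0.37, and Mccc1, a subunit of the leucine-degrading carboxylase, at -0.33 ± 0.08 and 0.20 ± 0.08. Without replicate 3 the ACPC-NP values of these 3 genes were 0.42, 1.44 and 0.19. The adjusted p of each was 0.9999 against CaP or 0.278 against ACPC-NP.

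**Figure D5:**
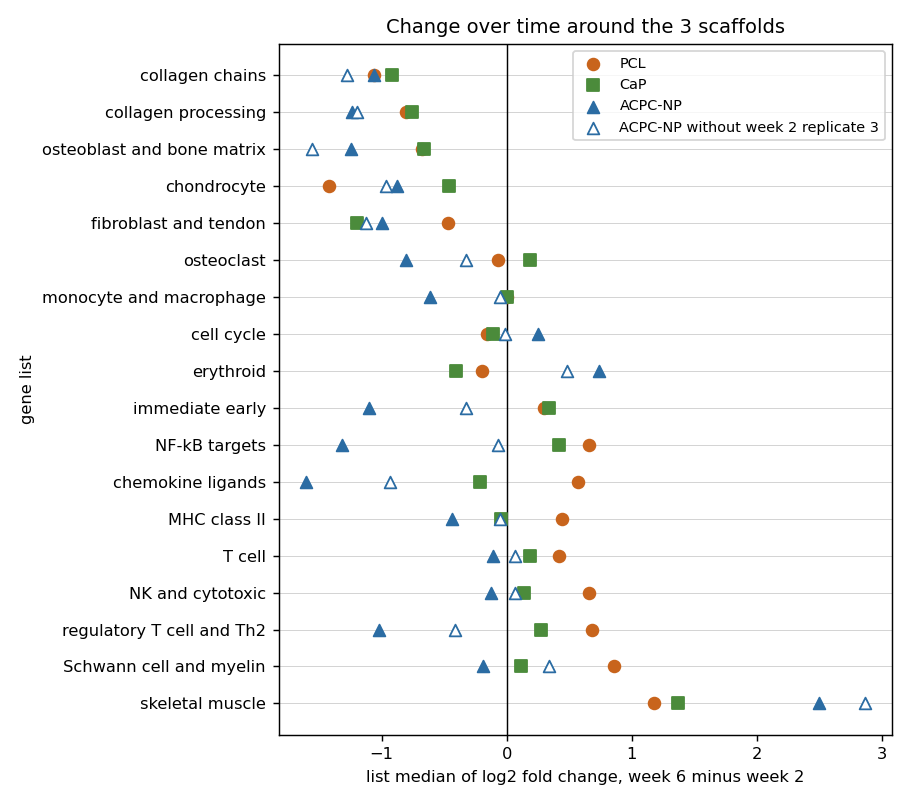
Median log2 difference between week 6 and week 2 over the tested members of 18 gene lists (horizontal axis) around PCL, CaP and ACPC-NP, with open triangles for ACPC-NP without its week 2 replicate 3. The collagen and osteoblast lists lie left of 0 for every scaffold, while the NF-kB targets lie at 0.66 for PCL, 0.42 for CaP and -1.32 for ACPC-NP, or -0.07 without replicate 3.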

How the data were processed

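RNA of cells from bone and marrow at PCL, CaP and ACPC-NP scaffolds was sequenced in 18 libraries, 3 per scaffold and week. Values used are the raw counts of reads per gene that the authors deposited; per the submitters' processing notes, tools were bcl2fastq 2.20.0, STAR 2.7.9a, Subread 2.0.1 and featureCounts on Rnor_6.0. Not given in the sources used here are the annotation, the strand setting and any read filter, so overlapping, antisense and near-identical genes are uncertain. A normalised table was not used, columns of samples outside the series numbered 0, and genes not in the table were not analysed here.

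Genes were kept by filterByExpr (minimum count 10, minimum total 15), which left 11814 of 17337 genes. The main test was edgeR 4.0.16's quasi-likelihood F test (robust, TMM scaling, all 18 libraries, 12 residual degrees of freedom, R 4.3.3), with Benjamini-Hochberg adjustment over all tested genes and a threshold of 0.05. Comparisons were week 6 minus week 2 around PCL, and the difference of that from the same contrast around CaP and around ACPC-NP, without a block. All log2 differences come from this model unless another tool is named. The BCV was 26%. CPM were scaled by TMM, with a prior count of 2 for log2 scores. Total counts per library were 18880604 to 27186587, and depth bounds low genes by counting error only. Alternatives were DESeq2 1.42.0, limma 3.58.1 voom with quality weights, DESeq2 size factors, no filter, only the groups compared, a replicate block, and leaving out libraries. Scripts were tested on simulated data.

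Members and lists were chosen with earlier results of these data known. The 43 lists held 815 entries, of which 762 matched the table; these are 716 different genes, 671 of them tested. Named genes were the 10 of smallest p in each direction (none passed), up to 3 a direction per scaffold test, up to 2 per list, and a panel of 33 genes, of which 31 were tested. Those of smallest p and of the scaffold tests had an average log2 CPM of at least 1 and no placeholder symbol (such as LOC or RGD with digits). Genes of the lists and the panel were not limited in this way. Others named are said to be so. Sequences are RefSeq's (GRCr8), matched by symbol for 14821 of 17337 genes. Replicate numbers come from the labels, and the column names of the counts number the week 2 and week 6 libraries differently. The deviations of same-numbered week 2 and week 6 libraries correlated at -0.0119, -0.0364 and -0.303 across genes. With 3 libraries a group these values give no sign of pairing but cannot exclude it, so the libraries were treated as unpaired.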

Additional observations from a re-analysis of the deposited data

Results flagged for a closer look

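Of the 91 genes whose values the text gives, 10 had this pattern: every week 6 library around PCL lay on one side of every week 2 library, while around another scaffold the order was the opposite without overlap. The share of all tested genes with this pattern was not counted. Many of the 91 were named for a small p in the tests of time or scaffold, which favours the pattern, so the count is only a description. The test of the difference itself, edgeR's interaction term, passed in none of these 10 genes after Benjamini-Hochberg adjustment, with an adjusted p of 0.9999 against CaP and 0.278 against ACPC-NP. Against CaP the gene was Nxph4, a neurexophilin, at -1.51 around PCL and 0.96 around CaP (log2, week 6 minus week 2).

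Against ACPC-NP there were 9 genes. Il2ra, the interleukin 2 receptor chain, was at 1.27 around PCL and -1.93 around ACPC-NP. RT1-Da, an MHC class II chain, was at 0.65 and -0.80. The chemokine Ccl22 was at 1.43 and -1.82, and Ccl4 at 1.40 and -4.55. Tgfbr1, a TGF-beta receptor, was at 0.33 and -0.68, and the cytokine Lif at 1.17 and -1.17. Pianp, a PILRA ligand, was at 1.02 and -1.36, Tusc2, a mitochondrial protein, at -0.42 and 0.46, and Mccc1, a carboxylase subunit, at -0.33 and 0.20. Without replicate 3 of ACPC-NP at week 2, which stood apart from the other libraries, the ACPC-NP values were -1.34 for Il2ra, -0.31 for RT1-Da, -1.35 for Ccl22, -2.78 for Ccl4, -0.48 for Tgfbr1, -0.74 for Lif, -1.40 for Pianp, 0.42 for Tusc2 and 0.19 for Mccc1. The difference between the scaffolds without it was 2.60 ± 0.65 for Il2ra, 0.95 ± 0.30 for RT1-Da, 2.77 ± 0.90 for Ccl22, 4.17 ± 0.75 for Ccl4, 0.81 ± 0.19 for Tgfbr1 and 1.90 ± 0.68 for Lif (SE, log2). These kept the direction of the values with that library.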

How the results depend on the processing

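Against the 0 calls of edgeR in each comparison, DESeq2 called 17 genes higher and 19 lower at week 6, 2 that differed from CaP and 137 from ACPC-NP, and voom called 1059, 686, 0 and 1953. Leaving out 1 PCL library at a time gave 0 to 38 higher, 0 to 14 lower, 0 to 1 against CaP and 0 to 62 against ACPC-NP, and each highest count came without replicate 1 of week 6. With the replicate number as a block, 1 gene was called higher, Foxp3 with an adjusted p of 0.0436, and 0 lower. The numbers are not known to pair the libraries. DESeq2 size factors in edgeR, no filter on low counts, only the groups compared, and leaving out replicate 3 of ACPC-NP at week 2 gave 0 calls, as did leaving out both cartilage-rich libraries, an alternative chosen after seeing the data and not run for the scaffold tests. Of 1274 log2 differences of 91 named genes under the alternatives, 1239 kept their direction. Voom turned Spp1 to -0.15, Sost to 0.25, Sox9 to 0.78, Col2a1 to 0.81 and Cd68 to -0.27. The block turned Spp1 to -0.031 and Cd68 to -0.0307. Cd68 was -0.0155 with no filter, -0.00013 with only the groups compared and -0.0024 without replicate 3 of ACPC-NP. Without both cartilage-rich libraries Sost was 0.31, Dmp1 0.0941, Ctsk 0.17, Nos2 0.42 and Tubb4a 0.0039. With 1 PCL library left out, the ranges were -3.02 to 0.19 for Acan, -0.13 to 0.57 for Bmp2, -0.35 to 0.20 for Cd68, -5.44 to 2.09 for Col2a1, -0.56 to 0.14 for Mmp9, -0.59 to 0.35 for Nos2, -0.42 to 0.43 for Sost, -1.67 to 1.22 for Sox9, -0.44 to 0.45 for Spp1 and -0.0334 to 0.67 for Vegfa. The cause of these was not tested. Of 43 list medians, 22 kept their sign under all 14 alternatives. With 3 libraries a group, the error of many differences was near their size, also in genes with many counts, so small differences were often not detectable. Levels under 1 CPM rest on few counts as well.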

Other observations

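Stromal and vascular lists not described above had medians near or below 0 around PCL. Of 13 tested genes of leptin receptor stroma and marrow fat 8 were below 0, with a median of -0.22 (log2, week 6 minus week 2). In this list 3 genes lay wholly higher at week 6 and 0 wholly lower (7.76% and 6.7% of all genes). Voom called 0 of its genes higher and 3 lower (8.96% and 5.81% of all genes). Of 12 genes of pericytes and smooth muscle 9 were below 0, with a median of -0.29. The 13 tested genes of the hedgehog and PTHrP pathways, which order growth cartilage, had a median of -0.39 that turned to 0.25 without the cartilage-rich replicate 2 of week 2. Medians were 0.05 over 9 genes of granulocyte progenitors, -0.05 over 15 of eosinophils and mast cells, and -0.06 over 10 of megakaryocytes. The median of the granulocyte progenitor list was -0.63 without replicate 1 of week 6 and 0.30 without replicate 2 of week 6. Other medians were as follows. They were -0.02 over 29 ribosomal protein genes, -0.06 over 15 heat shock genes, 0.01 over 26 genes of hypoxia and glycolysis and -0.16 over 15 of iron and haem.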
